A study of Mus musculus with 21 samples.

Results

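The 9 genes described here encode the mitochondrial pyruvate carrier, the catalytic core of the pyruvate dehydrogenase complex and the kinases that switch that complex off. They were chosen by symbol, as Mpc1, Mpc2, Pdha1, Pdhb, Dlat, Pdk1, Pdk2, Pdk3 and Pdk4, out of 24054 rows of a gene-level count table from mouse left ventricle. All 9 passed the filter on low counts, together with 14135 genes in all. The rule names genes by function and uses no threshold on a measured value.

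All 21 mice were C57BL/6J, and 1 library of total RNA was made from the left ventricular myocardium of each. The groups were 5 mice with sham surgery, 5 with constriction of the transverse aorta (TAC, a surgical narrowing that makes the left ventricle pump against high pressure), 5 with TAC and the PDE5A inhibitor sildenafil, and 6 with TAC and the PDE9A inhibitor PF-04449613. Both drugs block phosphodiesterases that degrade cyclic GMP, and each was given for 4 weeks from 1 week after surgery. No genetic change is named for any group. The sources used here give no age, sex, dose or vehicle. Ear tags name a separate animal for each library and fall into series in the 100s, 500s and 600s, which were spread unevenly over the groups: no sham mouse had a tag in the 500s and no mouse of the PDE5A inhibitor group had one in the 100s. The sources used here do not say what the tag series stand for.

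Pyruvate from glycolysis and lactate enters the mitochondrial matrix through a carrier built of Mpc1 and Mpc2, and both subunits are needed for transport. Inside, the pyruvate dehydrogenase complex turns it into acetyl-CoA. Pdha1 and Pdhb form the decarboxylating dehydrogenase, Dlat is the acetyltransferase core with lipoyl arms, and Dld, which the complex shares with others, reoxidises those arms. The Pdk kinases phosphorylate Pdha1 and inactivate the complex, and the Pdp phosphatases reverse this. The adult heart burns mostly fatty acids, and Pdk4 is the kinase gene known to be induced by fasting, fatty acids and PPAR signalling, which spares glucose.

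Upstream sequence is shown for 3 members, to set the gene whose level varied most between animals (Pdk4) beside the genes of the dehydrogenase (Pdha1 and Pdhb), which ranged less (the highest library was 7.97 times the lowest for Pdk4, 1.64 for Pdha1 and 1.89 for Pdhb). Each is the 200 bases from 250 to 51 bases before the RefSeq start site, read from the RefSeq promoter table (GRCm38.p6) 5′ to 3′ on the gene's strand, which is the minus strand for all 3. The windows lie at chrX:160138481-160138680 for Pdha1, chr14:8173043-8173242 for Pdhb and chr6:5496329-5496528 for Pdk4. Capitals mark CCAAT, which reads ATTGG when it lies on the other strand.
Pdha1: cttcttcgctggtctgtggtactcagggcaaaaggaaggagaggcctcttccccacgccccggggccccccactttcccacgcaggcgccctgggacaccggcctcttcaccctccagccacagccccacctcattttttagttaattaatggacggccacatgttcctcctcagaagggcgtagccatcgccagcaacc
Pdhb: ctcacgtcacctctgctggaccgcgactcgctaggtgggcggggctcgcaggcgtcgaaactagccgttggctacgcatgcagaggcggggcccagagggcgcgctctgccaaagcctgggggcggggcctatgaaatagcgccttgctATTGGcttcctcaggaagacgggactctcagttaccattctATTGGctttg
Pdk4: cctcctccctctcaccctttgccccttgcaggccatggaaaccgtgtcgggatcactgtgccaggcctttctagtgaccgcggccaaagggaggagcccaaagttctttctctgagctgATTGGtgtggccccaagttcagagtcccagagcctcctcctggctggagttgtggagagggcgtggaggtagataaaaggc
The Pdhb sequence holds 2 matches and the Pdk4 sequence 1, all on the opposite strand, and the Pdha1 sequence holds none. Over all 32851 promoter windows of the table, 28.4% held CCAAT on either strand in the same stretch. The 9 members have 12 windows there, each of 300 bases. These were also searched on both strands for TNAAGGTCA (the element of estrogen-related receptors), 2 copies of AGGTCA with 1 base between them (the direct repeat bound by PPAR with RXR) and GTAAACA (the FOXO element), which 1.28%, 0.0396% and 3.65% of all windows hold, and no member window had any of them. A match is a description of the letters and not a site, and the CCAAT search was added after the values were seen.

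Per length of merged exons, Pdha1 was the most abundant member and Pdk3 the least in every group. Levels are TMM-scaled CPM (counts per M), and for the order of levels they were divided by the length of each gene's merged exons in kb. In sham hearts the order of mean CPM per kb was Pdha1 at 377 ± 22.7, Mpc1 at 219 ± 19.0, Pdk4 at 184 ± 92.8, Pdhb at 146 ± 14.8, Dlat at 102 ± 9.21, Pdk2 at 72.2 ± 14.4, Mpc2 at 39.3 ± 3.24, Pdk1 at 38.3 ± 3.05 and Pdk3 at 0.939 ± 0.117 (SD, n = 5). Pdk4 cannot be placed against Mpc1, Pdhb or Dlat beyond its own spread, and Mpc2 and Pdk1 stood within their spread of each other. With the longest transcript as the length, Pdhb (238) stood above Pdk4 (185) and the rest of the order in sham was the same. The levels themselves depend on the length chosen, and 8 of the 9 in sham moved by their SD or more. Pdha1 (495 ± 29.8) and Mpc1 (474 ± 41.1) then stood within their spread of each other in sham. By the longest transcript Mpc1 stood above Pdha1 in TAC (419 and 401 CPM per kb) and with the PDE5A inhibitor (420 and 410), within their spread. In GENCODE M21 (GRCm38) all 9 are protein-coding. Pdha1 spans X:160122209-160138413 and Pdk3 spans X:93764607-93832201. The carrier genes lie at 17:8282904-8297661 (Mpc1) and 1:165460637-165481214 (Mpc2), Pdhb at 14:8165996-8173025 and Dlat at 9:50634633-50659780. The other kinase genes lie at 2:71873224-71903858 (Pdk1), 11:95026258-95041354 (Pdk2) and 6:5483351-5496309 (Pdk4). Mpc1, Pdha1 and Pdk2 overlap a gene on the opposite strand (4930506C21Rik, Map3k15 and Gm11513) and Mpc2 overlaps Gm37860 on its own strand. The sources used here do not say whether the authors' counting used strand, so reads shared with these neighbours cannot be told apart.

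**Figure D1:**
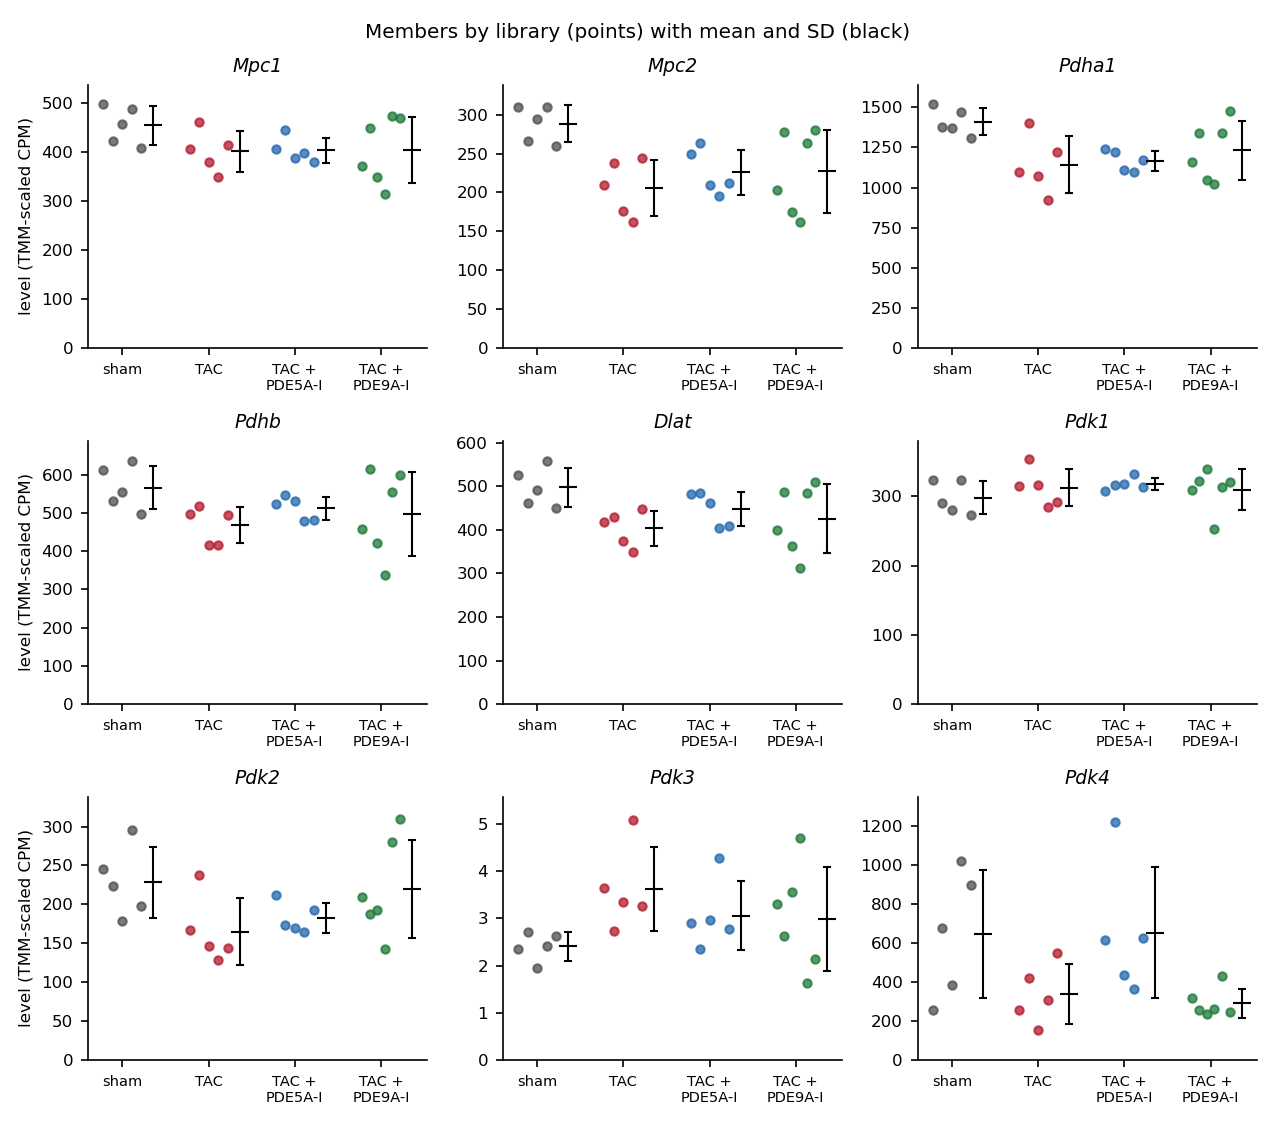
Level of each member (TMM-scaled CPM, linear axis from 0) in all 21 libraries by group; coloured points are libraries and the black mark is the group mean with its SD. Mpc2 in TAC lies below every sham library, and Pdk4 spreads from 255 to 1020 CPM within sham alone.

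Total counts ran from 22670467 to 40989905 per library, and no pair of libraries within a group agreed within sampling noise. Cardiomyocyte markers summed to 128000 to 223000 CPM over all libraries. White adipocyte markers summed to at most 2.39 CPM, and Ucp1, the defining gene of brown fat, reached at most 0.0379 CPM. Elovl3 of the same brown adipocyte list reached at most 0.0542 CPM. The rest of that list was expressed: Cidea (21.5 to 34.9 CPM), Cox8b (244 to 449), Cox7a1 (270 to 711) and Ppargc1a (74.9 to 161). Between sham and TAC, 9 of 10 fibroblast markers rose (summed 1450 to 1920 CPM in sham and 2840 to 8490 in TAC) and 6 of 12 cardiomyocyte markers fell (189000 to 223000 against 128000 to 190000 CPM). Those shifts accompany every TAC result below. In bulk tissue, fewer cells of a type and less RNA per cell cannot be told apart, and the markers' part in the results was not tested.

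A carrier subunit and a dehydrogenase subunit fell after TAC. Of the 9 members, 2 were called between TAC and sham (adjusted p under 0.05, edgeR), both lower: Mpc2, a carrier subunit, and Pdha1, the kinases' substrate. Over all tested genes the same rule called 25.2% in either direction and 13% as lower, so the members' share is near the background. The median log2 fold change was -0.30 over the members and -0.001 over all genes. At an unadjusted p under 0.05 in the edgeR fit, 7 of the 9 passed, beside 5592 of all 14135 tested genes. Ranges of TAC and sham did not overlap for 3 members (Mpc2, Dlat and Pdk3), where 16.5% of all tested genes had no overlap.

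Mpc2 in the 5 sham libraries was at 310, 266, 295, 310 and 260 CPM, and in the 5 TAC libraries at 209, 238, 176, 162 and 244 CPM. Every TAC heart was below every sham heart, with TAC library 5 closest and TAC library 4 farthest. Mpc2 fell by 0.49 on the log2 scale (SE 0.15, adjusted p 0.0238), from 288 ± 23.8 to 206 ± 36.5 CPM (SD, n = 5 each), a change of -28.7%. Its partner Mpc1 was at 499, 424, 458, 488 and 408 CPM in sham and at 406, 463, 380, 350 and 414 CPM in TAC. The Mpc1 groups overlap and its log2 difference of -0.18 (95% interval -0.40 to 0.04, adjusted p 0.212) was not called. Whether the carrier subunits differ in their response was not tested.

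Pdha1 was at 1520, 1380, 1370, 1470 and 1310 CPM in sham and at 1100, 1400, 1070, 925 and 1220 CPM in TAC. A single TAC heart, library 2, reached the sham range, and the others lay below it. Pdha1 fell by 0.30 (log2, SE 0.11, adjusted p 0.0434), from 1410 ± 84.7 to 1140 ± 177 CPM. Pdhb, the other dehydrogenase subunit, averaged 566 ± 57.1 CPM in sham and 468 ± 48.4 in TAC, with a log2 difference of -0.27 that was not called (SE 0.13, adjusted p 0.119). Dlat, the acetyltransferase, was at 526, 462, 492, 559 and 451 CPM in sham and at 419, 429, 374, 350 and 448 CPM in TAC. The Dlat groups just miss each other, at 451 and 448 CPM, and the log2 difference of -0.30 (SE 0.12) had an adjusted p of 0.0589.

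Both calls lie near the threshold. Mpc2 passed the threshold with all libraries and missed it without sham library 1 (adjusted p 0.0543), sham library 4 (0.0545), TAC library 3 (0.0724) or TAC library 4 (0.0747). Pdha1 missed it without any of sham libraries 1 to 4 or TAC libraries 1, 3 and 4, and also with ear tag series as a term (0.0789), with no filter on low counts (0.0573) and in a fit of TAC and sham alone (0.0571). Within the ear tag series that held both groups, Mpc2 in TAC was lower by a log2 difference of -0.38 in the 100s (2 TAC against 3 sham libraries) and -0.52 in the 600s (2 against 2), and Pdha1 by -0.20 and -0.38.

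None of the 4 kinases was called after TAC, and whether they differ from each other was not tested. Pdk1, the kinase gene known for its response to hypoxia, was the steadiest member: all 21 libraries lay between 253 and 354 CPM. Its TAC against sham difference was 0.07 (log2, 95% interval -0.09 to 0.23, adjusted p 0.519). Pdk2, a widely expressed kinase, was at 246, 224, 178, 296 and 198 CPM in sham and at 167, 238, 147, 128 and 144 CPM in TAC. TAC library 2 sat within the sham range and the other 4 below it, and the log2 difference of -0.47 (SE 0.19) had an adjusted p of 0.0734. Pdk2 in TAC stood at -0.10 (log2) against sham in the 100s and -0.84 in the 600s.

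Pdk3 is a minor kinase in this tissue, counted at 41 to 158 reads per library. It was at 2.34, 2.70, 1.94, 2.42 and 2.63 CPM in sham and at 3.64, 2.74, 3.34, 5.09 and 3.27 CPM in TAC. Every TAC heart stood above every sham heart, by a narrow margin for TAC library 2. The log2 difference was 0.59 (SE 0.23, adjusted p 0.065). Pdk3 and Pdk1 were the members with a higher mean in TAC than in sham.

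Pdk4 had the widest spread of the members, with a highest library 7.97 times the lowest. In sham it was at 255, 678, 382, 1020 and 894 CPM, and in TAC at 254, 418, 153, 308 and 550 CPM. TAC libraries 2, 4 and 5 lay within the sham range, and sham library 1 was level with TAC library 1. The mean was 646 ± 326 CPM in sham and 337 ± 153 in TAC, and the log2 difference of -0.94 (SE 0.38, 95% interval -1.73 to -0.15) was not called (adjusted p 0.0732). It was -0.31 within the 100s and -1.21 within the 600s. Without sham library 1 or without TAC library 5 the Pdk4 difference passed the threshold, and without any other single sham or TAC library it missed it.

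**Figure D2:**
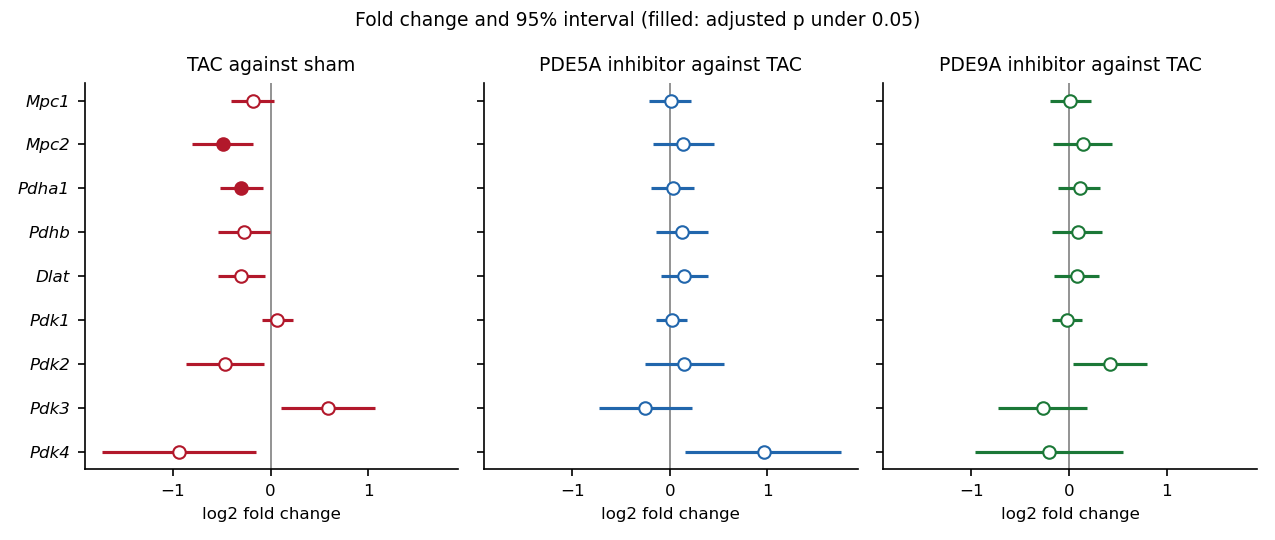
Log2 fold change of each member (x axis) with its 95% interval, for TAC against sham, and for each inhibitor group against TAC; filled points have an adjusted p under 0.05. Mpc2 and Pdha1 in TAC against sham are the filled points, and Pdk4 has the widest interval in each panel.

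The drug groups were then set against TAC alone. Neither inhibitor had a called member against TAC, where 0.0141% of all genes were called under the PDE5A inhibitor and 0.00707% under the PDE9A inhibitor. Both comparisons use the same 5 TAC libraries, so their values are not independent of each other. At an unadjusted p under 0.05 there was 1 member in each: Pdk4 under the PDE5A inhibitor and Pdk2 under the PDE9A inhibitor. Of all 14135 tested genes, 731 passed that rule under the PDE5A inhibitor and 2061 under the PDE9A inhibitor.

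Pdk4 under sildenafil was at 615, 1220, 436, 365 and 627 CPM, a mean of 653 ± 338. The PDE5A inhibitor libraries 1, 2 and 5 stood above the highest TAC heart and the other 2 within the TAC range. The log2 difference from TAC was 0.96 (SE 0.38, 95% interval 0.16 to 1.75) with an unadjusted p of 0.0208 and an adjusted p of 0.947 in the edgeR fit. Leaving out single libraries moved it between 0.60 and 1.21. It was 2.50 within the 500s, where a single TAC library served as control, and 0.17 within the 600s (3 against 2 libraries). These within-series values differ in size, and their difference was not tested.

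Under PF-04449613, Pdk4 ran from 237 to 432 CPM over 6 libraries with a median of 258 CPM. This was the narrowest Pdk4 group, with a coefficient of variation of 25.5% against 45.4 to 51.7% in the others. The log2 difference from TAC was -0.21 (95% interval -0.96 to 0.55, adjusted p 0.822). Pdk2 in the same hearts ran from 142 to 310 CPM with a median of 201, and TAC ran from 128 to 238. PDE9A inhibitor libraries 5 and 6 were above all TAC hearts and the other 4 within the TAC range. The Pdk2 log2 difference was 0.42 (SE 0.18, 95% interval 0.04 to 0.80), at an unadjusted p of 0.0335 and an adjusted p of 0.31.

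The carrier and dehydrogenase genes stood close to TAC in both drug groups. Mpc2 averaged 226 ± 29.3 CPM with the PDE5A inhibitor and 227 ± 53.5 with the PDE9A inhibitor, each 0.14 above TAC on the log2 scale. The 95% intervals, -0.17 to 0.45 and -0.16 to 0.44, include no difference and also a rise nearly as large as the fall under TAC. Pdha1 averaged 1170 ± 61.8 and 1230 ± 181 CPM, with log2 differences of 0.03 and 0.11. For Mpc1, Pdhb, Dlat and Pdk1 the log2 differences from TAC lay between -0.02 and 0.15. Pdk3 stood at -0.25 and -0.27 against TAC, also without a call.

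Between the drug groups, Pdk4 was the member that differed most. No member was called, against 0.00707% of all genes. Pdk4 was lower with the PDE9A inhibitor by a log2 difference of -1.16 (SE 0.36, 95% interval -1.92 to -0.41), with an unadjusted p of 0.00437 and an adjusted p of 0.343. The groups overlap through PDE9A inhibitor library 5 (432 CPM) and PDE5A inhibitor library 4 (365 CPM). Leaving out single libraries kept the difference between -1.32 and -0.81, and it was -1.59 within the 500s (4 against 2 libraries) and -0.90 within the 600s (1 against 3). The other 8 members differed by -0.08 to 0.27 on the log2 scale.

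Against sham, no member was called in either drug group, where 14.6% of genes were called with the PDE5A inhibitor (6.81% higher and 7.8% lower) and 3.82% with the PDE9A inhibitor (2.17% higher and 1.65% lower). Both comparisons share the sham libraries with TAC against sham. Pdha1 with the PDE5A inhibitor, at 1240, 1220, 1110, 1100 and 1170 CPM, lay below every sham heart, with a log2 difference of -0.27 (SE 0.11, adjusted p 0.0873), while 15.6% of all genes had no overlap there. Mpc2 stood at -0.35 against sham in both drug groups (adjusted p 0.11 and 0.13). Pdk4 with the PDE5A inhibitor had a log2 difference from sham of 0.02 over all libraries (95% interval -0.77 to 0.80). Within the 600s, the only series that held both groups, it was -1.04 (3 against 2 libraries). With the PDE9A inhibitor Pdk4 stood at -1.15 against sham (SE 0.36, adjusted p 0.067). That difference was -0.35 within the 100s (1 against 3 libraries) and -1.95 within the 600s (1 against 2).

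The makeup of the kinase pool differed between animals, and Pdk4 had the widest range of shares. Expressed as a share of the summed CPM per kb of the 4 kinase genes, Pdk4 took 59.1 ± 13.8% in sham, 48.7 ± 11.8% in TAC, 62.4 ± 10% with the PDE5A inhibitor and 42.8 ± 5.94% with the PDE9A inhibitor (SD, n = 5, 5, 5 and 6). By library the share ran from 51.9 to 78.3% with the PDE5A inhibitor and from 33.5 to 48.8% with the PDE9A inhibitor. These ranges do not overlap, whereas those of sham (37.7 to 72.1%) and TAC (33.0 to 65.0%) do. The share was not tested, and it uses the same Pdk4 values as the comparison above. With longest transcripts as lengths the ranges, 43.0 to 71.6% and 26.2 to 40.0%, stayed apart as well. Pdk2 was the second pool in every group mean by merged exons, from 21.6 ± 5.42% with the PDE5A inhibitor to 35.6 ± 5.77% with the PDE9A inhibitor. Its ranges in the drug groups did not overlap either, at 12.3 to 25.9% and 29.3 to 46.5%. With longest transcripts they were 15.7 to 30.0% and 33.5 to 50.8%. Shares within a library depend on each other, so the Pdk2 and Pdk4 separations are not independent results. The Pdk2 levels themselves overlap, at 164 to 212 CPM with the PDE5A inhibitor and 142 to 310 CPM with the PDE9A inhibitor. Their log2 difference of 0.27 was not called (adjusted p 0.634, edgeR). By longest transcripts Pdk2 was the largest pool with the PDE9A inhibitor, at 39.9% against 34.5% for Pdk4. Pdk3 never exceeded 1.20% in a library. These are shares of transcripts scaled by length and say nothing of kinase protein or activity.

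**Figure D3:**
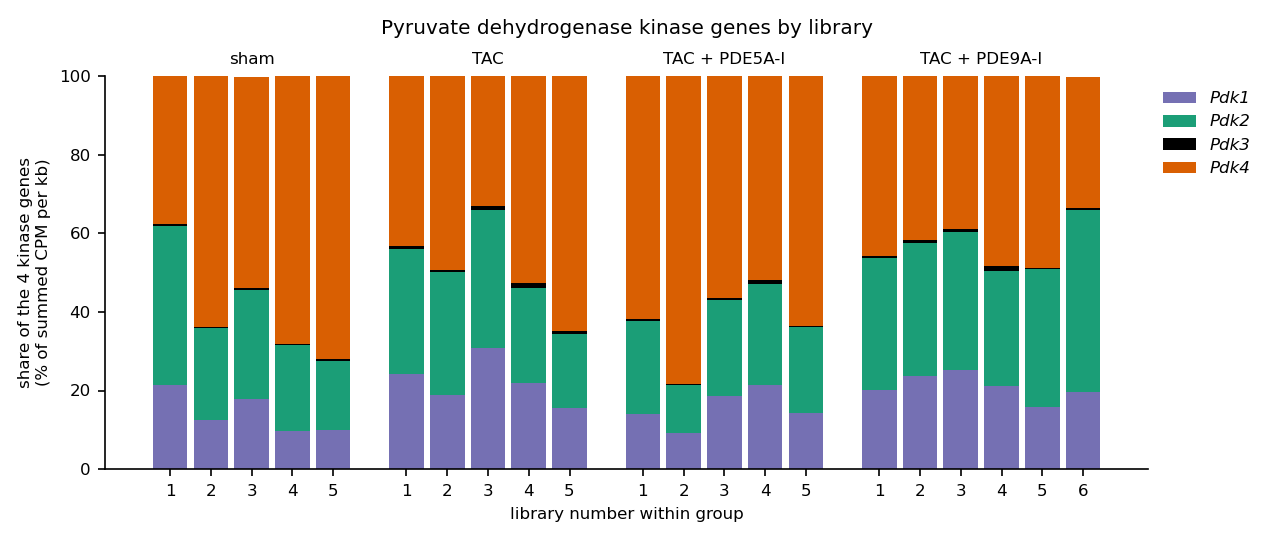
Share of each kinase gene (y axis, % of the summed CPM per kb of the 4 genes) in each library, grouped by treatment. The Pdk4 segment takes 51.9 to 78.3% in the PDE5A inhibitor libraries and 33.5 to 48.8% in the PDE9A inhibitor libraries.

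Across hearts, the carrier and dehydrogenase genes varied together while Pdk4 varied apart from them. After subtracting group means from log2 CPM, the 10 pairs among Mpc1, Mpc2, Pdha1, Pdhb and Dlat had Pearson's r of 0.84 to 0.97 over the 21 libraries. Pdk4 had r of -0.26 to 0.33 with the other members, and Pdk3 had negative r with all of them, from -0.83 with Mpc1 to -0.26 with Pdk4. Pdk2 varied with the carrier and dehydrogenase genes too, at r of 0.64 to 0.79, and Pdk1 less so, at 0.41 to 0.61. The points share libraries, depth and tissue makeup, so these are descriptions without a test. Among 12035 genes compared in the same way, the closest to Mpc2 were Atp5f1, Gfm1 and Uqcrc2 (r of 0.99 each), and the closest to Pdha1 were Ndufa1, Gcdh and Atp5h (0.98 each). Mpc1 was closest to D10Jhu81e (0.97), Ndufa10 and Prdx5 (0.96 each), Pdhb to Dnaja3, Cisd1 and Cbr4 (0.97 each), and Dlat to Dnaja3 and Uqcc1 (0.98 each) and Gfm1 (0.97). For the kinases the closest were Srpk2 (0.94), Optn (0.90) and Vps13a (0.87) for Pdk1, Pygm (0.95), Dennd4b and Wnk2 (0.94 each) for Pdk2, and Foxc2 (0.92), Atp8b2 (0.90) and Srsf9 (0.89) for Pdk3. Pdk4 was nearest to Tshz1 (0.87), Ucp3 (0.85) and Lenep (0.79), lower than the top r of any other member.

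Members were also set against Myh7, the slow myosin heavy chain gene that mouse ventricle re-expresses under load. The 16 TAC-operated libraries fell into separate clusters, 4 at 380 to 592 CPM of Myh7 (PDE5A inhibitor libraries 1 and 2, PDE9A inhibitor libraries 5 and 6) and 12 at 1747 to 9100 CPM, so correlations were computed within the 12. Mpc2 was lower where Myh7 was higher (Pearson's r -0.76, permutation p 0.00475, adjusted over the 9 members 0.0289; Spearman's rho -0.67, permutation p 0.0211, adjusted 0.063). Pdha1 had r of -0.73 (permutation p 0.00642, adjusted 0.0289) and rho of -0.73 (permutation p 0.00844, adjusted 0.063). Without the 2 libraries farthest from the median Myh7, r was -0.58 for Mpc2 and -0.63 for Pdha1 over 10 libraries. Of all tested genes, 2.17% had an r at least as negative as that of Mpc2 and 3.05% as that of Pdha1. Counting r of either sign and at least that size, the shares were 4.32% and 5.99%.

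The other 7 members did not pass after adjustment over the 12 libraries. Their r with Myh7 was -0.62 for Dlat, -0.59 for Pdhb, -0.57 for Mpc1, -0.40 for Pdk2, -0.26 for Pdk4, -0.05 for Pdk1 and 0.51 for Pdk3, with adjusted permutation p-values from 0.0942 to 0.873. An r at least as negative was held by 8.28% of all tested genes for Dlat, 9.82% for Pdhb and 11.2% for Mpc1. After subtracting group means in the 12, Mpc1 (r -0.75, adjusted permutation p 0.00983), Dlat (-0.76, 0.00983) and Pdhb (-0.71, 0.016) passed too. Mpc2 (-0.81, 0.00983) and Pdha1 (-0.76, 0.00983) also passed, and no kinase did. The share of all tested genes with centred r of this size was not computed. Without the 2 libraries farthest from the median Myh7, the uncentred r was weaker, at -0.34 for Mpc1, -0.41 for Dlat and -0.33 for Pdhb. The correlations planned over all TAC-operated libraries, with both Myh7 clusters, are not reported here. Which members, kinases included, passed in that planned form is therefore not stated. In the same 12 libraries the summed fibroblast markers had r of 0.87 with Myh7 and the summed cardiomyocyte markers -0.48. The brown adipocyte list, in which Ucp1 was near 0 and Cox7a1, Cox8b and Ppargc1a made up most of the sum, had r of -0.82. Summed smooth muscle and pericyte markers had r of -0.65, and Abcc9 was the largest part of that sum in every group mean. The list did not move as 1: between sham and TAC, Abcc9 fell by 0.82 (log2), while Tagln rose by 1.12 and Pdgfrb by 0.24. No other gene of that list was called there. The part of these marker lists in the relations with Myh7 was not tested. No ear tag series held 6 of the 12 libraries (3, 4 and 5 in the 100s, 500s and 600s), so no value within a series is given. In the 4 libraries of low Myh7, Mpc2 was at 250 and 263 CPM with the PDE5A inhibitor and at 264 and 280 CPM with the PDE9A inhibitor, near the sham range of 260 to 310 CPM. Pdk4 in the same 4 was at 615, 1220, 432 and 248 CPM, without that closeness to each other. An Mpc2 level near sham was not confined to low Myh7: among the 12, PDE9A inhibitor library 2 was at 278 CPM and TAC library 5 at 244 CPM.

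**Figure D4:**
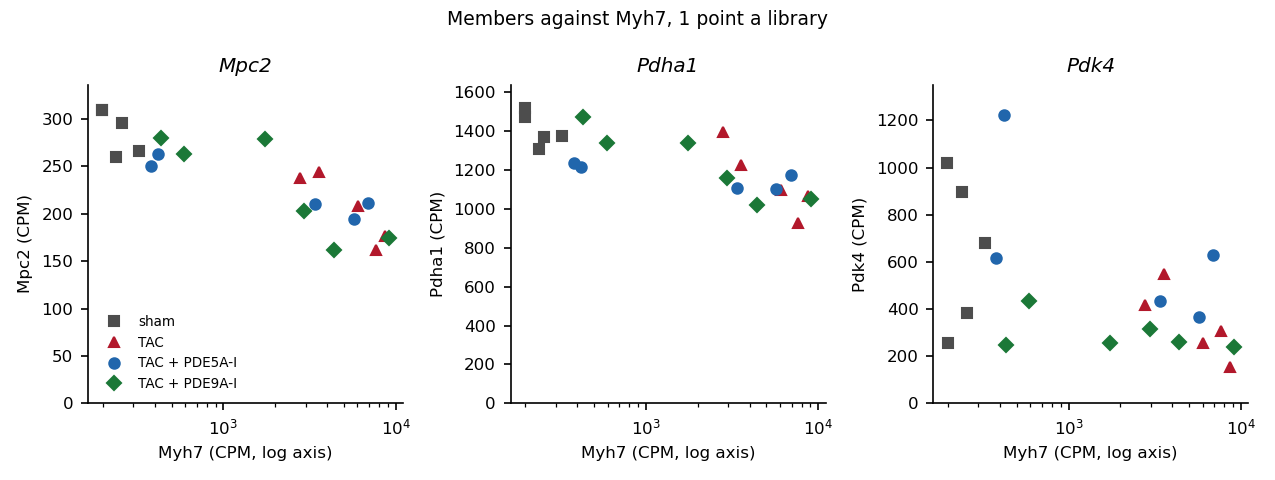
Mpc2, Pdha1 and Pdk4 (y axes, CPM, from 0) against Myh7 (x axis, CPM, log scale), 1 point a library with group by shape and colour. Mpc2 and Pdha1 lie lower in the TAC-operated libraries of high Myh7, and Pdk4 with the PDE9A inhibitor stays between 237 and 432 CPM along the axis.

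Genes that work with the members were read from lists by function. Of the other parts of the complex, 2 of 5 tested genes fell after TAC and none rose, with a median log2 fold change of -0.21, where 13% of all tested genes were lower and 12.2% higher. Pdp2, a phosphatase that reactivates the complex, was at 52.1, 48.7, 56.7, 65.5 and 47.5 CPM in sham and at 20.5, 39.8, 16.9, 13.1 and 32.6 CPM in TAC. All TAC hearts were below all sham hearts, and Pdp2 fell by 1.14 on the log2 scale (SE 0.32, adjusted p 0.0161). Dld, the shared dihydrolipoamide dehydrogenase, fell by 0.48 (SE 0.14, adjusted p 0.0163), from 508 ± 41.7 to 363 ± 57.8 CPM. The other phosphatase gene Pdp1 (-0.20), the core-binding subunit Pdhx (-0.18) and the phosphatase regulator Pdpr (-0.21) were not called, and Pdha2 had too few counts to be tested.

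Other routes of pyruvate and lactate held 6 genes that fell and 1 that rose among 14 tested (median -0.25), beside 13% lower and 12.2% higher over all genes. The monocarboxylate transporter gene Slc16a7 fell by 1.22, the alanine transaminases Gpt and Gpt2 by 1.03 and 0.78, and the heart-type lactate dehydrogenase Ldhb by 0.59, from 1270 ± 122 to 843 ± 222 CPM. Ldhd, a D-lactate dehydrogenase, fell by 0.62 and Me3, a malic enzyme, by 0.37. Slc16a3, the transporter gene known for lactate export, rose by 1.46 at a low level, from 1.83 ± 0.65 to 5.00 ± 3.78 CPM. Ldha (0.08), the anaplerotic carboxylase Pcx (-0.21) and the transporter Slc16a1 (-0.10) were not called. Among 8 tested genes of lipoate supply, which loads the arm of Dlat, Oxsm fell by 0.36 and no other was called (median -0.22), again beside 13% lower over all genes.

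The dehydrogenase complexes built on the same plan, for 2-oxoglutarate and branched-chain keto acids, had 5 of 9 tested genes lower and none higher (median -0.50), against 13% lower and 12.2% higher over all genes. Ppm1k, the branched-chain phosphatase, fell by 0.78, Bckdhb by 0.69, Dbt by 0.54, Dlst by 0.39 and Ogdh by 0.38. Among 18 genes known to respond to fatty acids through PPAR, as Pdk4 does, 12 fell and none rose (median -0.52), with the same 13% and 12.2% over all genes. Acot1 fell by 2.03, Acot2 by 0.92, Cd36 by 0.49, Acadl by 0.39, Acaa2 by 0.97, Plin2 by 0.33 and Cpt1b by 0.34, while Angptl4 stood at -0.71 without a call (adjusted p 0.249). Ucp3, the mitochondrial carrier whose pattern was near that of Pdk4, fell by 1.63 (SE 0.59, adjusted p 0.0484), from 76.5 ± 23.6 to 24.7 ± 23.4 CPM.

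Of 13 genes for regulators of Pdk4 transcription, 7 fell and 1 rose after TAC (median -0.39), where 13% of all genes fell and 12.2% rose. Those lower were Klf15 (-0.90), the coactivators Ppargc1a (-0.61) and Ppargc1b (-0.43), the receptors Ppara (-0.57), Pparg (-0.54), Rxra (-0.39) and Esrra (-0.37). Hif1a, the hypoxia-inducible factor, rose by 0.65, from 133 ± 14.3 to 207 ± 25 CPM. No gene of these 6 lists was called between an inhibitor group and TAC or between the inhibitor groups. Between the drug groups Angptl4 stood at -1.41 (log2, SE 0.44, adjusted p 0.343), beside Pdk4 at -1.16, with 4.34 ± 1.23 CPM under the PDE9A inhibitor and 11.5 ± 5.85 under the PDE5A inhibitor.

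**Figure D5:**
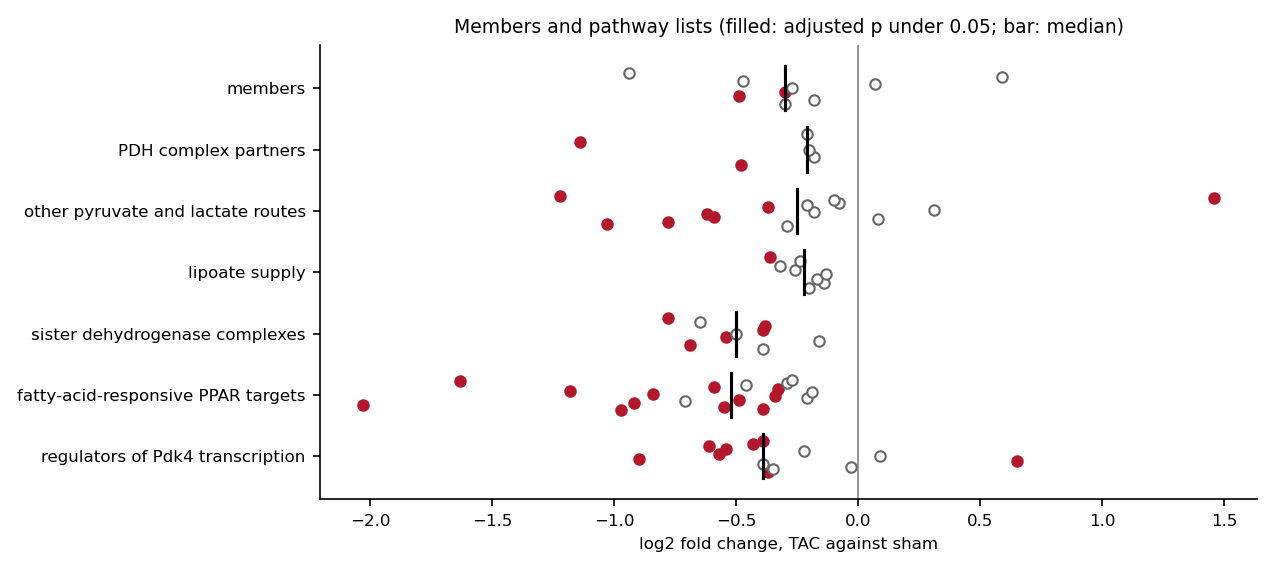
Log2 fold change of TAC against sham (x axis) for the members and the 6 lists, 1 point a tested gene, filled where the adjusted p is under 0.05, with the list median as a bar. All medians lie between -0.52 and -0.21, and the members' median is -0.30.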

How the data were processed

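Left ventricular RNA of 21 mice (1 stranded total RNA library each) was deposited by the authors as RSEM expected counts per gene symbol, not scaled between libraries, of which 19% had decimals. Per the submitters' processing notes, which give neither role nor order, the build was mm10 and the tools included RSEM 1.3.0 and HISAT2 2.0.5. Annotation and counting strand were not given in the sources used. Of all rows, 27 had dates for names and were not described. Expected counts were rounded, filtered with filterByExpr by group (14135 genes), scaled by TMM and fitted in 1 edgeR 4.0.16 quasi-likelihood model (robust, R 4.3.3) with a mean per group; a gene was called at a Benjamini-Hochberg adjusted p under 0.05 over all tested genes. The procedure was tested on simulated data. Errors are SD over animals for levels and SE for log2 fold changes, and log2 CPM used a prior count of 2. Correlations have two-sided permutation p-values from 100000 resamples; they were planned over the 16 TAC-operated libraries and restricted to 12 after the clusters in Myh7 were seen.

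Members and lists were chosen with earlier results of these data known. Named were all members and, of each list, up to 6 called genes with the lowest adjusted p in TAC against sham plus a fixed set (Dld, Pdhx, Pdp1, Pdp2, Ldha, Ldhb, Pcx, Slc16a1, Angptl4, Ucp3, Cpt1b, Ppara, Ppargc1a, Esrra), and up to 3 genes of most like pattern with a mean of at least 1 CPM. Klf15, Me3 and Pdpr lie outside this rule and were named after their values were seen, and a gene that the rule names is not reported here. The alternatives were relative log expression factors, DESeq2 1.42.0, no filter on low counts, fits of 2 groups, a replicate block, ear tag series as a term and libraries left out.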

Additional observations from a re-analysis of the deposited data

Results flagged for a closer look

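In 36 sets of values (9 members in 4 groups), each with 5 or 6 libraries, 1 library stood far from its group. Pdk1 in PDE9A inhibitor library 4 was at 253 CPM, the lowest Pdk1 value of all libraries. The gap to the nearest of the other 5 was 0.638 of the group's range, beyond Dixon's 95% limit for 6 values. Chance alone sets apart about 1 in 20 groups. The same library had the highest share of Rn45s counts, at 0.416%, and whether this bears on Pdk1 was not tested.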

How the results depend on the processing

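Of 918 recomputed member fold changes, 52 changed sign; none was of a called difference, the largest after the change was 0.33 in size, and their lowest adjusted p (edgeR or DESeq2) was 0.547. The cause of these shifts was not tested. Called members in TAC against sham numbered 2, and 4 with DESeq2 (where 4152 of 14132 genes were called), 1 without a filter (3214 of 18888), 1 with ear tag series as a term (2681 of 14135) and 0 to 4 leaving out single libraries. Fits restricted to the groups compared gave 3 there (Mpc2, Dlat and Pdk3, not Pdha1), beside 3925 of 13761 genes. In PDE5A inhibitor against sham such fits gave 2 members, beside 3440 of 13881 genes. In PDE9A inhibitor against sham called members numbered 0, then 1 with DESeq2 (Pdk4, beside 1550 of 14132 genes) and 0 to 1 leaving out single libraries.

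Replicate numbers did not pair the animals: 8 of 30 same-numbered pairs had a correlation of deviations over 0.1, and 3 of 21 libraries correlated best with their own number. With the replicate block, called members were 5 in TAC against sham (1 higher, 4 lower), 2 in PDE5A inhibitor against sham and 2 in PDE9A inhibitor against sham; Pdk4 in TAC against sham passed with it (adjusted p 0.0356). Genes called with the block were 3896 of 14135 in TAC against sham, 2575 in PDE5A inhibitor against sham, 1 in PDE5A inhibitor against TAC, 0 in PDE9A inhibitor against TAC, 0 between inhibitors and 2241 in PDE9A inhibitor against sham. Signs changed with the block for Mpc1 under the PDE9A inhibitor against TAC (-0.04) and, between inhibitors, for Mpc1 (-0.05), Mpc2 (-0.08) and Pdk3 (0.04).

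Genes called in TAC against sham were 3558, and 1781 to 4440 leaving out single libraries. PDE5A inhibitor against TAC had 2 (DESeq2 8, 2 groups 0, ear tag 1, single libraries left out 0 to 2). PDE9A inhibitor against TAC had 1 (DESeq2 33, no filter 0, 2 groups 0, ear tag 0, without libraries 1 and 4 0, single libraries left out 0 to 46). Between inhibitors there was 1 (DESeq2 35, 2 groups 0, without libraries 1 and 4 2, single libraries left out 1 to 8). PDE5A inhibitor against sham had 2066 (2 groups 3440, ear tag 276, single libraries left out 580 to 2274). PDE9A inhibitor against sham had 540 (DESeq2 1550, no filter 329, 2 groups 17, ear tag 6, without libraries 1 and 4 18, single libraries left out 21 to 1814).

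With ear tag series as a term, signs changed between inhibitors for Mpc1 (-0.01), Mpc2 (0) and Pdk3 (0.05), against sham for Pdk4 under the PDE5A inhibitor (-0.17) and for Pdk2 under the PDE9A inhibitor (0.06). Without PDE9A inhibitor libraries 1 and 4 they changed for Pdk1 against TAC (0.04), between inhibitors for Pdhb (0.09), Dlat (0.03) and Pdk1 (0.02), and for Pdk2 against sham (0.09). Leaving out single libraries changed signs in these ranges. Under the PDE5A inhibitor against TAC: Mpc1 -0.04 to 0.06, Pdha1 -0.03 to 0.12 and Pdk1 -0.01 to 0.07. Under the PDE9A inhibitor against TAC: Mpc1 -0.04 to 0.07, Pdk1 -0.05 to 0.03 and Pdk4 -0.39 to 0.04. Between inhibitors: Mpc1 -0.05 to 0.06, Mpc2 -0.07 to 0.08, Pdhb -0.11 to 0.04, Pdk1 -0.07 to 0.01 and Pdk3 -0.20 to 0.13. Against sham: Pdk2 under the PDE9A inhibitor -0.17 to 0.06 and Pdk4 under the PDE5A inhibitor -0.33 to 0.24. Depth limits Pdk3, at 41 to 158 reads a library.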

Other observations

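The 5 carrier and dehydrogenase genes spread widely within the PDE9A inhibitor group: Pdhb ran from 337 CPM in library 4 to 614 CPM in library 2, and Mpc2 from 162 to 280 CPM in libraries 4 and 6. Pdp2, the phosphatase, ran from 20.5 CPM in PDE9A inhibitor library 4 to 50.1 CPM in library 5, and from 15.8 to 48.8 CPM over the PDE5A inhibitor libraries. PDE5A inhibitor library 2 held the highest Pdk4 level of all libraries (1220 CPM) together with Ucp3 at 96.5 CPM, where the other libraries of that group had Ucp3 at 8.73 to 35.4 CPM. These are values without a test.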
